A study of Mus musculus with 8 samples.

Results

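The integrated stress response and the unfolded protein response were followed through 35 genes in cultured mouse oligodendrocyte progenitors, the dividing precursors of the myelinating glia of the central nervous system. The members were taken by symbol from the deposited gene table, and all 35 were found among its 24155 genes. They were divided into an ATF4 amino acid arm of 18 genes, 3 stress sensors of the endoplasmic reticulum (ER), and an XBP1/ATF6 folding arm of 14 genes. Progenitors were immunopanned from male and female pups at postnatal day 7 in which both Ehmt1 and Ehmt2 were floxed, so control and treated cells carried the same Ehmt1fl/fl;Ehmt2fl/fl alleles. Cells were kept in SATO medium containing 10 ng/mL PDGF-AA plus 20 ng/mL bFGF, a culture that holds progenitors in a dividing state. The 4 control libraries came from cells infected with Ad-RFP, an adenovirus for a red fluorescent protein. The 4 libraries of the conditional knockout (cKO) came from cells infected with Ad-RFP-iCre, which adds Cre recombinase. No library came from cells with Cre and intact Ehmt1 and Ehmt2, so an effect of Cre cannot be told apart from the deletion. Both viruses were used at a multiplicity of infection of 10, with 6 hours of incubation and collection at 72 hours, so every library carries an adenoviral infection and no uninfected cells were compared. Libraries are numbered 1, 3, 4 and 6 in both groups, and each number is a batch in the labels that holds 1 control and 1 cKO library. The labels do not say whether batches are separate litters or cultures, so p-values measure the spread between these pairs of libraries.

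Both responses slow protein synthesis and reprogram transcription when cells are strained. In the integrated stress response, kinases such as PERK (Eif2ak3) phosphorylate the initiation factor eIF2, general translation falls, and translation of the transcription factor ATF4 increases. ATF4 and its partners then induce genes of amino acid synthesis, amino acid uptake and tRNA charging. In the unfolded protein response, IRE1 (Ern1) splices Xbp1 mRNA and ATF6 is released by proteolysis, and both factors induce chaperones and degradation factors of the ER. Oligodendrocytes make large amounts of membrane protein and lipid, and both responses have been studied in myelin disorders. Much of the control of ATF4, XBP1, ATF6 and PERK acts on translation, splicing or the protein, which a count of mRNA per gene does not measure.

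The deposited values are expected counts per gene, with totals between 43542742 and 65374488 per library. Levels are given in CPM, counts scaled to a common library size after TMM normalization, in the order of replicates 1, 3, 4 and 6. Ehmt1 was at 88.8, 100, 93.1 and 100 CPM in control libraries and at 36.1, 41.9, 42.4 and 45.7 CPM in cKO libraries, a level of 43.4% of control (edgeR adjusted p = 7.41e-08). Ehmt2 was at 154, 178, 196 and 181 CPM in control libraries and at 51.7, 55.5, 64.5 and 62.0 CPM in cKO libraries, a level of 32.9% of control (edgeR adjusted p = 2.16e-09). The groups did not overlap for either targeted gene. The summed level of 8 progenitor markers was 8480 to 13000 CPM in control and 7760 to 11600 CPM in cKO libraries. This sum was lower in 4 of 4 pairs, and 2 of the 8 were called lower (Pdgfra and Ptprz1). It includes Gpr17, a marker of committed progenitors, at 102, 488, 5380 and 3900 CPM in control and 160, 524, 4290 and 2880 CPM in cKO libraries. Gpr17 was higher in cKO in replicates 1 and 3 and lower in replicates 4 and 6. The summed level of 8 markers of myelinating oligodendrocytes was 237 to 1610 CPM in control and 291 to 2590 CPM in cKO libraries, higher in 4 of 4 pairs, and 5 of the 7 tested were called higher. Astrocyte markers summed to 898 to 2660 CPM against 897 to 2500 CPM, lower in 4 of 4 pairs but nearly level in replicate 3. Slc1a3 alone made up 1190, 554, 1360 and 1440 CPM in control and 970, 432, 1150 and 1230 CPM in cKO libraries. The direction of the sum therefore leans on this gene. Gfap and Aqp4 were called higher and Gja1 and Slc1a3 lower. The median log2 fold change of the 8 astrocyte markers was 0.14, with 3 higher and 2 lower in 4 of 4 pairs. Neuronal markers, of which Slc17a6 is absent from the table, summed to 45.3 to 87.0 CPM against 73.9 to 103 CPM, higher in 4 of 4 pairs. Of the 8 tested, 4 were called higher, and Rbfox3 was lower in 4 of 4 pairs without a call. Microglial markers summed to 0.317 to 0.902 CPM against 0.63 to 1.44 CPM, higher in 4 of 4 pairs, with P2ry12 called higher and Aif1, Cx3cr1, Tmem119, C1qa, C1qb and Itgam absent from the table. Endothelial markers summed to 2.97 to 10.9 CPM against 3.55 to 8.56 CPM, with Cldn5 and Cdh5 absent. Pericyte or fibroblast markers, with Dcn absent, summed to 0.398 to 2.1 CPM against 0.558 to 2.26 CPM, higher in 4 of 4 pairs. Rgs5 and Col1a2 were called higher, and Col1a1 was lower in 4 of 4 pairs without a call. Over all genes tested, 10.4% were called lower and 10.0% higher, and 21.3% were lower and 19.6% higher in 4 of 4 pairs. The part of the marker shifts in the results on stress genes was not tested. Fewer cells of a type cannot be told apart from less RNA per cell.

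The lower Ehmt1 and Ehmt2 mRNA of cKO cells was accompanied by small changes in a minority of the stress genes. Among the 35 members, all of which passed the filter on low counts, 8 fell and 1 rose in cKO cells, and 26 did not pass the threshold (edgeR quasi-likelihood test with batch in the model, Benjamini-Hochberg adjusted over 18102 genes, threshold 0.05). The genes that fell were Atf4, Phgdh, Shmt2, Slc7a5, Eif2ak3, Hspa5, Hyou1 and Calr, and the gene that rose was Sdf2l1. Of all genes tested, 10.4% were called lower and 10.0% higher, against 22.9% and 2.86% of the members. The median log2 fold change of the members was -0.06, beside -0.01 over all genes tested, and the members ran from -0.44 for Chac1 to 0.39 for Nupr1. Of the 9 that passed, Phgdh moved farthest and fell by 14.5%. In 14 members the cKO library was below its control in 4 of 4 pairs, a pattern seen in 21.3% of all genes. In 4 members, Cebpb, Dnajb9, Sdf2l1 and Manf, it was above in 4 of 4 pairs, against 19.6% of all genes. The ranges of control and cKO libraries overlapped for every one of the 35 members, so the calls rest on the comparison within batches. The share of all genes with such overlap was not counted, so overlap is not read as a trait of the members. Slc1a4 and Vegfa, genes outside the members that were called lower, overlapped too. Without the batch term, 3 of 18102 genes and 0 of 35 members passed the threshold, and 893 genes and 0 members had an unadjusted p under 0.05.

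**Figure D1:**
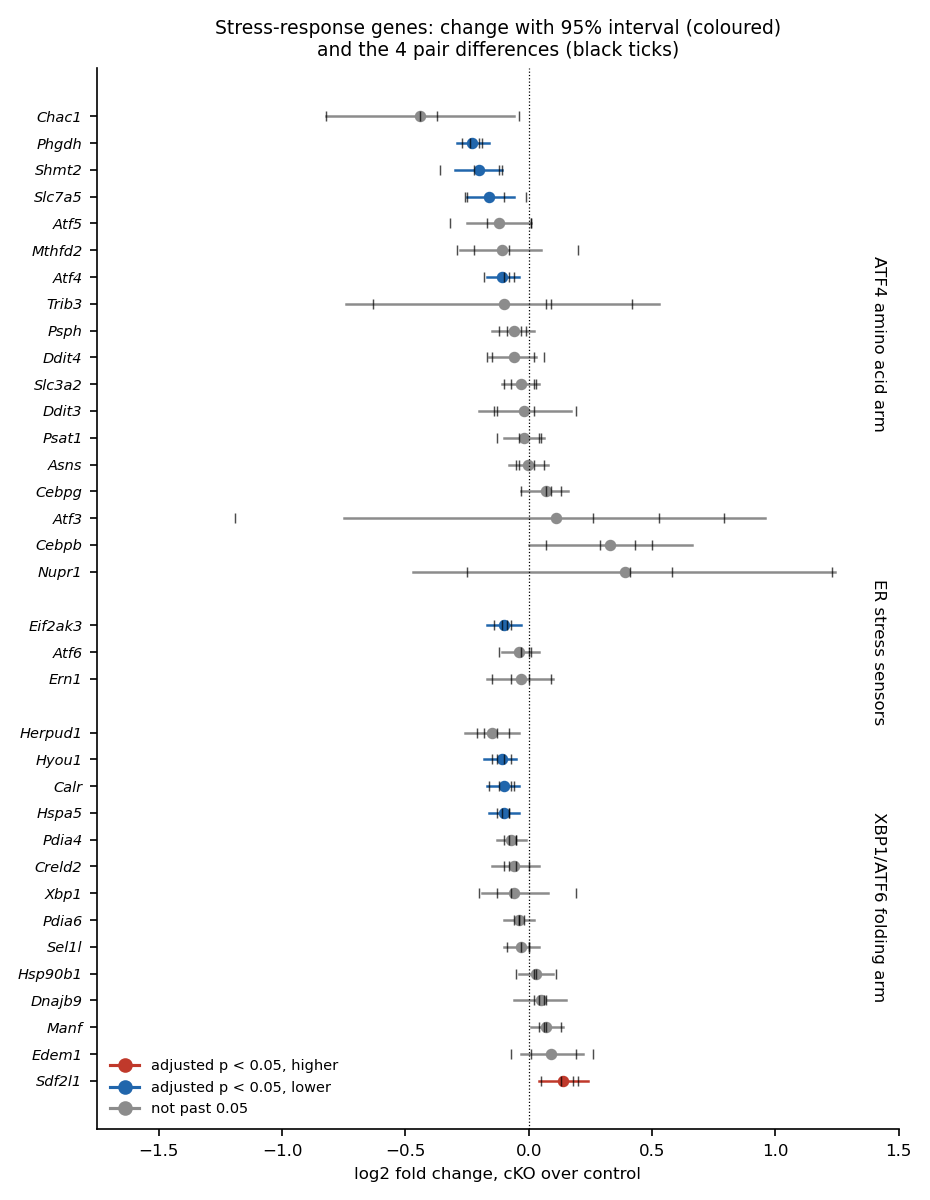
Log2 fold change (x axis, cKO over control) of each of the 35 members (y axis, grouped by arm), with points for the estimate, bars for its 95% interval and black ticks for the differences of the 4 pairs. Blue (lower) and red (higher) passed an adjusted p of 0.05 and grey did not. Chac1 (-0.44) and Nupr1 (0.39) lie farthest out and have wide bars, while Phgdh (-0.23) and Shmt2 (-0.20) are the lowest of those that passed.

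The ATF4 amino acid arm held 4 genes that fell, 0 that rose and 14 that did not pass, with a median log2 fold change of -0.06. The share called lower was 22.2%, beside 10.4% of all genes, and 10.0% of all genes were called higher. ATF4 binds, together with C/EBP proteins, a composite element with the letters TGATGNAA. This element was searched for on both strands of the 250 bases before the start site in the RefSeq promoter table (GRCm38.p6), which matched 31 of the 35 members and lacked Atf6, Hyou1, Manf and Slc7a5. It lay before 4 of the 17 matched genes of the arm and in 3.45% of 32851 promoter windows. The 4 stretches are shown because they mark which genes of the arm carry the element within this window. They are written in the direction of transcription of the gene, with the element in capitals.
Asns, chr6:7693220-7693237, minus strand: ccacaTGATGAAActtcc
Atf3, chr1:191183396-191183483, minus strand: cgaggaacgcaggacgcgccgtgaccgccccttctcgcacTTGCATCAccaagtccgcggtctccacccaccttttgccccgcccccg
Chac1, chr2:119351009-119351096, plus strand: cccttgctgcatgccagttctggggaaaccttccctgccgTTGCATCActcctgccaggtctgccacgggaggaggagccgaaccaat
Nupr1, chr7:126625568-126625585, minus strand: ccagaTTGCATCAgacag
In Asns the element reads in the direction of transcription and ends 15 bases before the start. In Atf3, Chac1 and Nupr1 it reads on the opposite strand, 102, 185 and 102 bases before the start. For Asns and Nupr1, an annotated exon of the gene itself (GENCODE M21) covers the element. None of these 4 genes passed the threshold between groups. A match is a description of letters and was not tested as a binding site.

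Atf4 mRNA itself, from chromosome 15, 80255184 to 80257541 (mm10, plus strand), fell slightly. Its level was 159, 149, 148 and 125 CPM in control and 148, 141, 142 and 110 CPM in cKO libraries. Each cKO library was below the control of its batch, although the groups overlapped, and replicate 6 was lowest in both. The log2 fold change was -0.11 ± 0.03 (SE; edgeR adjusted p = 0.0367), so the level fell by 7.06%. The call was lost when any 1 of the 4 replicates was left out, with adjusted p between 0.0887 and 0.104 (edgeR), and the fold change then ran from -0.11 to -0.08.

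Among the 5 enzymes of serine and one-carbon metabolism, 2 fell and 3 did not pass, with a median log2 fold change of -0.11. Beside these 2 of 5, 10.4% of all genes tested were called lower. The cKO library was lower in 4 of 4 pairs for 3 of the 5 enzymes, a pattern seen in 21.3% of all genes. Phgdh, which catalyses the first committed step of serine synthesis, was at 142, 114, 106 and 130 CPM in control and at 124, 99.6, 89.6 and 108 CPM in cKO libraries. It was lower in 4 of 4 pairs, by -0.19, -0.20, -0.24 and -0.27 on the log2 scale. The fitted log2 fold change was -0.23 ± 0.03 (SE; edgeR adjusted p = 0.000724). Shmt2, the mitochondrial hydroxymethyltransferase that moves a one-carbon unit from serine to folate, was at 116, 123, 82.0 and 69.4 CPM in control and at 99.1, 96.2, 76.1 and 63.9 CPM in cKO libraries. It too was lower in 4 of 4 pairs, with the largest gap in replicate 3, and fell by 13.1% (log2 fold change -0.20 ± 0.04 SE, edgeR adjusted p = 0.00897). Phgdh and Shmt2 were the members that stayed past the threshold in all 10 alternatives that kept batch in the model, with adjusted p at most 0.00985 and 0.0438. The other enzymes of the same route did not pass. Psat1, the transaminase after Phgdh, had a log2 fold change of -0.02 ± 0.04 and Psph, the phosphatase that releases serine, of -0.06 ± 0.04. Mthfd2, the mitochondrial folate enzyme after Shmt2, had -0.11 ± 0.07 (edgeR adjusted p = 0.31). It was below control in replicates 1, 3 and 4 and above it in replicate 6, and without replicate 6 its value was -0.19 with adjusted p = 0.0282 (edgeR).

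Of 3 genes of amino acid supply, 1 fell, a share of 33.3% that rests on this gene, beside 10.4% of all genes. Slc7a5, the light chain of the LAT1 exchanger for large neutral amino acids, was at 210, 178, 119 and 91.0 CPM in control and at 176, 149, 111 and 90.1 CPM in cKO libraries. The gap was -0.26 and -0.25 on the log2 scale in replicates 1 and 3 and -0.10 and -0.01 in replicates 4 and 6. Its fitted fold change was -0.16 ± 0.04 (SE; edgeR adjusted p = 0.0296), and the adjusted p was 0.13, 0.147 and 0.077 without replicates 1, 3 and 4. Slc3a2, the heavy chain that pairs with it, had -0.03 ± 0.03 (SE). Asns, which makes asparagine, was at 59.8, 70.0, 50 and 38.5 CPM in control and at 57.8, 67.9, 52.1 and 39.1 CPM in cKO libraries. Its pairs lay on both sides of 0, and the 95% interval of its log2 fold change was -0.08 to 0.08.

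The other transcription factors of the arm gave no call. Ddit3 (CHOP), a factor tied to stress-induced cell death, was at 5.27, 6.33, 8.50 and 7.89 CPM in control and at 6.01, 5.79, 8.64 and 7.15 CPM in cKO libraries. The cKO library was higher in 2 pairs and lower in 2, and the 95% interval of the log2 fold change was -0.20 to 0.17. Cebpb, a partner of ATF4, was at 2.22, 1.92, 1.25 and 0.719 CPM in control and at 2.73, 2.72, 1.3 and 0.985 CPM in cKO libraries. It was higher in 4 of 4 pairs, but its log2 fold change of 0.33 ± 0.15 did not pass (edgeR adjusted p = 0.145). Atf3, an early stress factor, ran from 0.151 to 0.525 CPM in control and from 0.194 to 0.617 CPM in cKO libraries. Nupr1, a stress-induced chromatin protein, was at 0.372, 0.416, 0.0476 and 0.0379 CPM in control and at 0.511, 0.335, 0.0791 and 0.145 CPM in cKO. These values rest on 8 to 35 counts per library for Atf3 and 2 to 29 for Nupr1, and the 95% intervals of their log2 fold changes, -0.75 to 0.96 and -0.47 to 1.24, span 0 widely, so a small change in either direction was not detectable at this depth. Atf5 had -0.12 ± 0.06 (edgeR adjusted p = 0.176) and Cebpg 0.07 ± 0.04 (edgeR adjusted p = 0.302).

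Feedback and effector genes of the arm did not pass either. Chac1, which degrades glutathione, was at 2.23, 2.26, 1.51 and 0.757 CPM in control and at 1.73, 1.65, 0.830 and 0.743 CPM in cKO libraries. It was lower in 4 of 4 pairs, nearly level in replicate 6, and its log2 fold change of -0.44 ± 0.17 missed the threshold (edgeR adjusted p = 0.0954). Trib3, a pseudokinase that restrains ATF4, stayed below 1 CPM, with 10 to 44 counts per library and a 95% interval of -0.74 to 0.53. Ddit4 (REDD1), an inhibitor of mTORC1, had -0.06 ± 0.04, below control in replicates 4 and 6 and above it in 1 and 3.

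**Figure D2:**
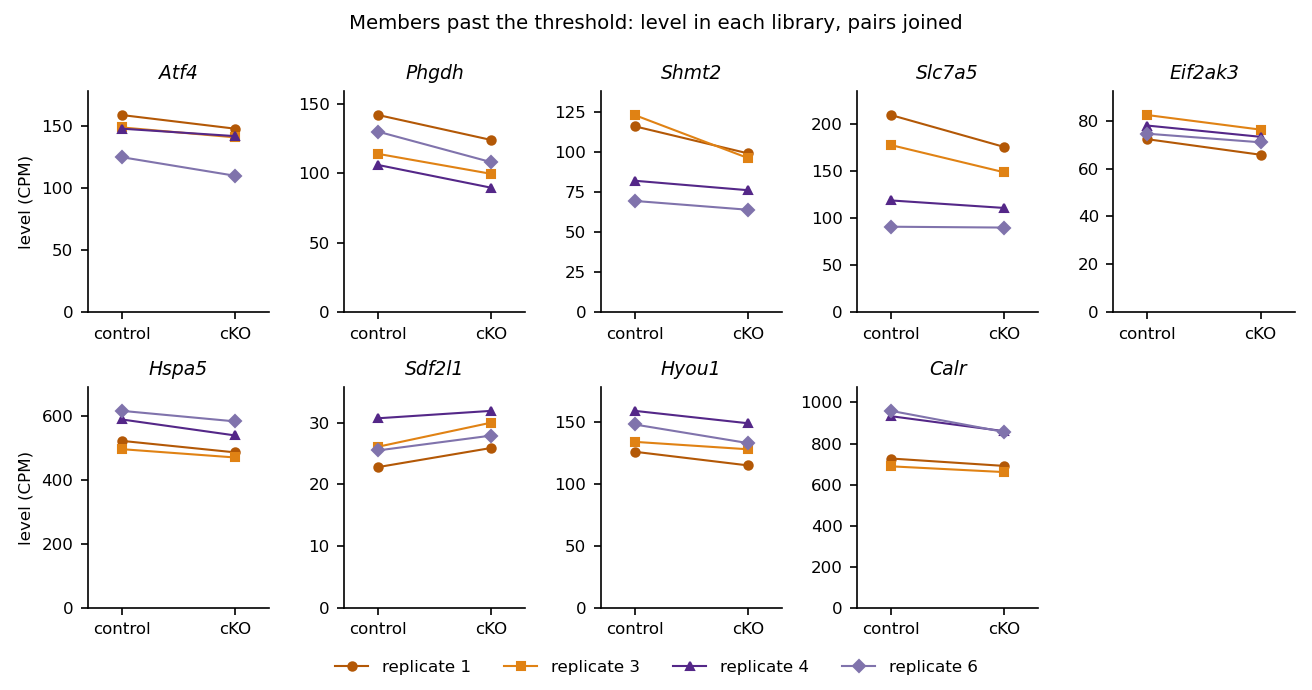
Level in CPM (y axis) of the 9 members that passed the threshold, in control and cKO libraries (x axis), with each line joining the pair of 1 batch and each axis starting at 0. Every line of the members called lower slopes down, and every line of Sdf2l1 slopes up. In each panel the batches lie farther apart, from highest to lowest, than any line rises or falls.

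**Figure D3:**
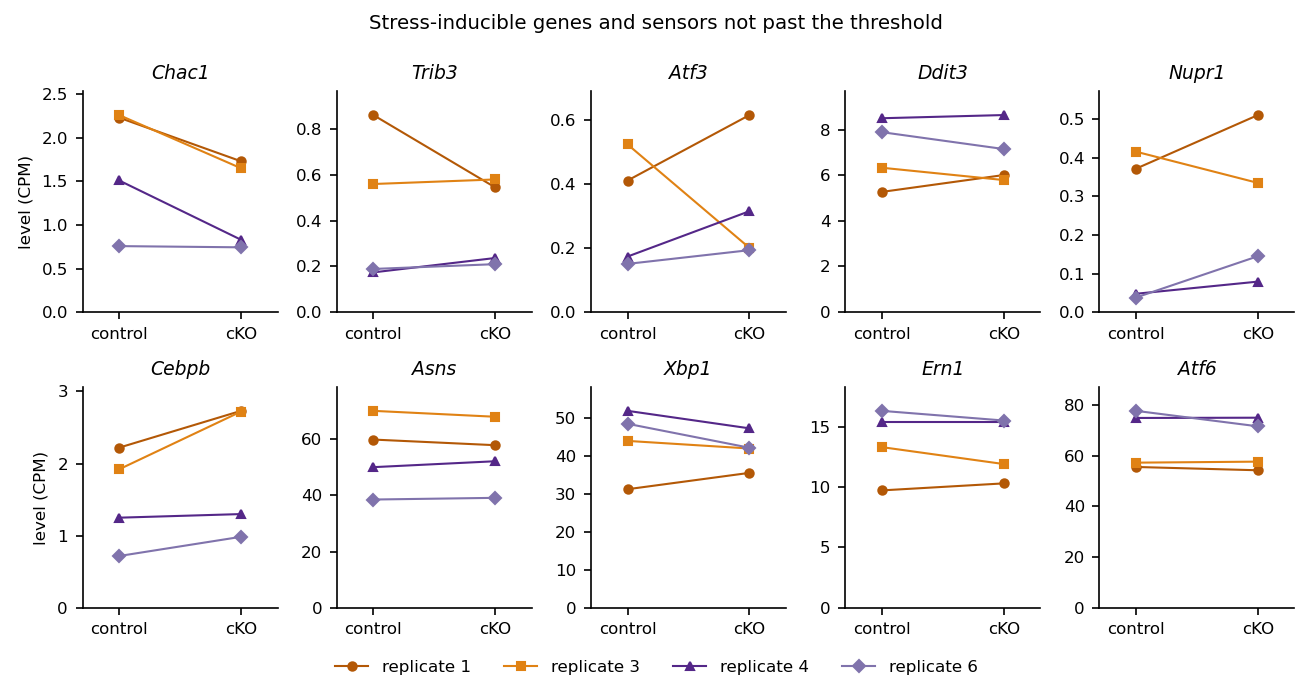
Level in CPM (y axis) of 10 inducible genes and sensors that did not pass, in control and cKO libraries (x axis), with lines joining pairs. Lines for Ddit3 and Ern1 go up in some pairs and down in others, those for Asns and Atf6 stay closer to level, and Atf3, Trib3 and Nupr1 stay below 1 CPM.

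Of the 3 ER stress sensors, only Eif2ak3 fell, a share of 33.3% that rests on this gene, beside 10.4% of all genes. This gene for PERK was at 72.3, 82.4, 78.0 and 74.6 CPM in control and at 65.8, 76.3, 73.3 and 71.0 CPM in cKO libraries. It was lower in 4 of 4 pairs, with overlapping groups and a log2 fold change of -0.10 ± 0.03 (SE; edgeR adjusted p = 0.0409). Leaving out replicate 1, 3 or 4 gave adjusted p = 0.144, 0.133 and 0.162 (edgeR). Ern1, the gene for IRE1, was at 9.72, 13.3, 15.4 and 16.3 CPM in control and at 10.3, 11.9, 15.4 and 15.5 CPM in cKO libraries. Atf6 was at 55.5, 57.2, 74.8 and 77.6 CPM in control and at 54.2, 57.6, 74.9 and 71.5 CPM in cKO libraries. Neither passed the threshold, with 95% intervals of -0.17 to 0.10 for Ern1 and -0.11 to 0.04 for Atf6.

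In the XBP1/ATF6 folding arm, 3 genes fell, 1 rose and 10 did not pass, with a median log2 fold change of -0.05. The shares called lower and higher were 21.4% and 7.14%, beside 10.4% and 10.0% of all genes. The ER stress element ERSE, which ATF6 binds with NF-Y, has the letters CCAAT followed after 9 bases by CCACG. It lay in the same window before 5 of the 12 matched genes of the arm, before 0 of the 17 of the ATF4 arm, and in 0.113% of all promoter windows. The variant ERSE-II, with ATTGG and CCACG separated by 1 base, lay before Herpud1 and in 0.0304% of windows. The XBP1 site TGACGTGG lay before none of the 31 matched members and in 0.563% of windows. The arm was drawn up as genes of XBP1 and ATF6, so these matches describe letters and are no separate support for the arms. None was tested as a binding site. The ERSE and ERSE-II stretches are shown because the members that held them in this window all belong to this arm. They are written in the direction of transcription of the gene, with the 2 conserved blocks in capitals.
Hspa5, chr2:34772020-34772048, plus strand: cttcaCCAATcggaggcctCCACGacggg
Calr, chr8:84847035-84847133, minus strand: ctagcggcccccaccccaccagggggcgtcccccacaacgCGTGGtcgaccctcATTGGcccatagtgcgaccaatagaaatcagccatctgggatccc
Creld2, chr15:88819480-88819578, plus strand: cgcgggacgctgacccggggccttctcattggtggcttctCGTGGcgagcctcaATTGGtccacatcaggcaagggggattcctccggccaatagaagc
Hsp90b1, chr10:86705598-86705694, minus strand: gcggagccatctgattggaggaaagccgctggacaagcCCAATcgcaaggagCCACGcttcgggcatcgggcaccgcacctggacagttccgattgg
Hsp90b1, chr10:86705528-86705556, minus strand: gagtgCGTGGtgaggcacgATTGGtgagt
Pdia6, chr12:17266486-17266514, plus strand: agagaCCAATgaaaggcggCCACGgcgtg
Herpud1 (ERSE-II), chr8:94386337-94386427, plus strand: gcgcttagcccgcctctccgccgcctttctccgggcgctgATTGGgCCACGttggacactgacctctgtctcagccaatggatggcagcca
Calr, Creld2 and the second Hsp90b1 match hold the element on the opposite strand, and an annotated exon of Hspa5 itself covers its element. Herpud1 also held the C/EBP-ATF element, 104 bases before the start. Among the 5 genes with ERSE, Hspa5 and Calr fell, and Hsp90b1, Pdia6 and Creld2 did not pass, with log2 fold changes of 0.03, -0.04 and -0.06.

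Xbp1, the transcription factor of the arm, was at 31.2, 43.9, 51.8 and 48.4 CPM in control and at 35.5, 41.9, 47.2 and 42.1 CPM in cKO libraries. It was above control in replicate 1 and below it in the other three, with a log2 fold change of -0.06 ± 0.06 (edgeR adjusted p = 0.548). The value was -0.13 without replicate 1 and -0.0094 without replicate 6. Splicing of its mRNA cannot be read from counts per gene.

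Among 8 ER chaperones and their cofactors, 3 fell (37.5%) and 1 rose (12.5%), beside 10.4% and 10.0% of all genes. Hspa5 (BiP), the Hsp70 chaperone that also holds the sensors inactive, was at 523, 497, 590 and 617 CPM in control and at 487, 471, 540 and 584 CPM in cKO libraries. It was lower in 4 of 4 pairs and fell by 6.53% (log2 fold change -0.10 ± 0.03 SE, edgeR adjusted p = 0.0327). Hyou1, the nucleotide exchange factor of BiP, was at 126, 134, 159 and 148 CPM in control and at 115, 128, 149 and 133 CPM in cKO libraries. It was also lower in 4 of 4 pairs, with a log2 fold change of -0.11 ± 0.03 (SE; edgeR adjusted p = 0.0216). Calr, the calcium-binding lectin chaperone, was at 727, 689, 933 and 959 CPM in control and at 691, 661, 860 and 856 CPM in cKO libraries, with the wider gaps in replicates 4 and 6. Its log2 fold change was -0.10 ± 0.03 (SE; edgeR adjusted p = 0.0336). Sdf2l1, a cofactor of BiP, was at 22.8, 26.1, 30.7 and 25.5 CPM in control and at 25.9, 30.0, 31.9 and 27.9 CPM in cKO libraries. It was higher in 4 of 4 pairs and rose by 10.2% (log2 fold change 0.14 ± 0.04 SE, edgeR adjusted p = 0.0481). Leaving out 1 replicate gave adjusted p from 0.0407 to 0.22 for Hspa5, 0.0487 to 0.105 for Hyou1, 0.0682 to 0.194 for Calr and 0.0559 to 0.172 for Sdf2l1 (edgeR), with Hspa5 past the threshold only without replicate 6 and Hyou1 only without replicate 3.

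The remaining folding genes did not pass. Hsp90b1 (GRP94), the ER member of the Hsp90 family, ran from 576 to 693 CPM over the 8 libraries with a log2 fold change of 0.03 ± 0.03. Manf, a secreted BiP-binding factor, was higher in 4 of 4 pairs with 0.07 ± 0.03 (edgeR adjusted p = 0.108), and Dnajb9 (ERdj4), which delivers BiP to IRE1, with 0.05 ± 0.05 (edgeR adjusted p = 0.545). The disulfide isomerases Pdia4 and Pdia6 had -0.07 ± 0.03 and -0.04 ± 0.03, both below control in 4 of 4 pairs. In ER-associated degradation, Herpud1 came nearest to the threshold at -0.15 ± 0.05 (edgeR adjusted p = 0.0564), Sel1l had -0.03 ± 0.03, and Edem1, a mannosidase-like protein, had 0.09 ± 0.06.

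The levels of the members spanned more than the changes. Per kilobase of annotated exon (GENCODE M21), Calr stood highest in control cells at 287 CPM per kilobase, followed by Hsp90b1 at 156, Hspa5 at 132, Psat1 at 112 and Pdia4 at 74.7 CPM per kilobase. Atf4 was at 61.6 and Phgdh at 49.5 CPM per kilobase. At the other end were Nupr1 at 0.0869, Atf3 at 0.146 and Trib3 at 0.210 CPM per kilobase, with Chac1 and Cebpb near 1 at 1.03 and 1.01. Exon length combines all annotated transcripts, so a gene with long rare transcripts reads low on this scale, and Ddit3 had no single annotated length.

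More members varied between batches than between groups. In the same model, 32 of 35 members varied between batches, all but Atf3, Cebpg and Manf, against 66.7% of all genes tested. The mean of a pair was highest in batch 1 for 14 members, batch 3 for 6, batch 4 for 8 and batch 6 for 7. Over all genes the shares were 22.3%, 28.6%, 22.1% and 27.0%. In the ATF4 arm, 13 of 18 genes were highest in batch 1 and 13 of 18 lowest in batch 6. In the folding arm, 6 of 14 were highest in batch 4 and 5 in batch 6, and 7 of 14 were lowest in batch 1. Over all genes, 29.2%, 24.5%, 21.4% and 24.9% were lowest in batches 1, 3, 4 and 6. The median ratio of the highest to the lowest batch was 1.84 in the ATF4 arm, 1.26 in the folding arm and 1.47 over all genes. Mthfd2 had batch means of 38.7, 34.7, 21.9 and 10.6 CPM, Slc7a5 193, 164, 115 and 90.6 CPM, and Slc3a2 127, 93.6, 80.2 and 72.4 CPM. Calr ran the other way with 709, 675, 896 and 908 CPM, and Sel1l with 191, 242, 255 and 292 CPM. Within the ATF4 arm, Ddit4, with 65.0, 51.5, 95.8 and 98.5 CPM, and Ddit3, with 5.64, 6.06, 8.57 and 7.52 CPM, were highest in batches 6 and 4.

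**Figure D4:**
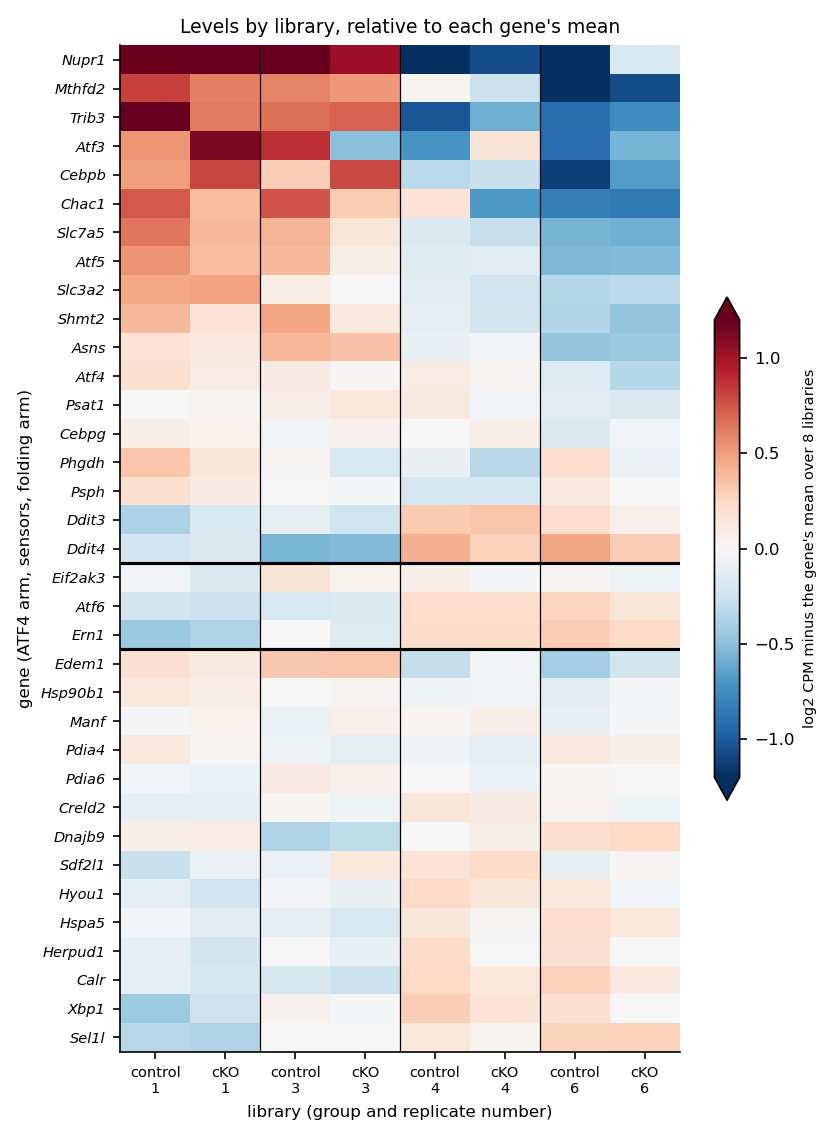
Log2 CPM of each member (rows, ordered within each arm by the ratio of batch 1 to batch 6) minus its mean over the 8 libraries (columns, pairs side by side, red above and blue below the mean, with the extremes of the colour scale standing for all values beyond them). Colour changes mainly between batches and little within a pair, with most ATF4 arm genes red in batch 1 and blue in batch 6.

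Markers of maturation also differed between batches. Gpr17, a marker of committed progenitors, was at 102, 488, 5380 and 3900 CPM in control and at 160, 524, 4290 and 2880 CPM in cKO libraries. Mbp, a myelin protein gene, was at 217, 10.1, 153 and 32.7 CPM in control and at 306, 10.8, 265 and 40.7 CPM in cKO libraries. Gpr17 was thus low in batches 1 and 3 and high in batches 4 and 6, while Mbp followed another order. The part of these differences in the levels of the stress genes was not tested.

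Further genes of these pathways were read from 5 lists, of which 127 genes were tested: 9 rose, 26 fell and 92 did not pass, with a median log2 fold change of -0.05. The share called lower was 20.5% and the share called higher 7.09%, beside 10.4% and 10.0% of all genes. Among 29 other genes of the integrated stress response, 2 rose and 11 fell (37.9% lower), with a median of -0.10. Slc7a3, a transporter of cationic amino acids, rose from 1.73, 2.50, 1.11 and 1.14 CPM to 3.44, 3.98, 2.25 and 2.07 CPM, a log2 fold change of 0.88 ± 0.13 (SE; edgeR adjusted p = 0.00128). It was higher in 4 of 4 pairs, and the cKO libraries of batches 1 and 3 were above every control library. Vegfa, an angiogenic growth factor, fell from 14.2, 7.25, 21.7 and 14.6 CPM to 10.5, 5.45, 15.5 and 9.33 CPM, with a log2 fold change of -0.50 ± 0.06 (SE; edgeR adjusted p = 0.000627). The neutral amino acid transporter Slc1a4 fell by 0.33 ± 0.04 on the log2 scale (edgeR adjusted p = 0.000218) and the glycine transporter Slc6a9 fell by 0.36 ± 0.06 (edgeR adjusted p = 0.00342). These 4 genes moved farther than any called member of the 35 and kept their calls when each replicate was left out.

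Among 21 genes of tRNA charging, 1 rose and 6 fell (28.6% lower), with a median of -0.06. Qars, the glutaminyl-tRNA synthetase, rose by 0.24 ± 0.04, while Xpot, the tRNA export factor, changed by -0.15 ± 0.03, Dars by -0.16 ± 0.04 and Iars by -0.11 ± 0.03 on the log2 scale. Among 48 further ER folding and secretory genes, 3 rose (6.25%) and 5 fell (10.4%, the share of all genes), with a median of -0.02. Sec24d, a cargo-selecting coat protein of ER exit, rose by 0.46 ± 0.05 and Ostc, a subunit of the oligosaccharyltransferase complex, by 0.16 ± 0.03. Os9, a lectin of ER-associated degradation, changed by -0.20 ± 0.03 and Stt3b, a catalytic subunit of the same transferase, by -0.14 ± 0.03. Of 16 cytosolic heat shock genes, 2 rose (12.5%) and 1 fell (6.25%), near the shares of all genes, with a median of -0.03. Hsp90aa1 rose by 0.18 ± 0.04 and Cryab by 0.51 ± 0.13, Hsph1 changed by -0.16 ± 0.03, and Dnaja1 had 0.10 ± 0.03 without passing. Of 13 mitochondrial chaperones and proteases, 1 rose and 3 fell (23.1% lower), with a median of -0.05. Yme1l1 rose by 0.14 ± 0.04, and Lonp1, a protease of the matrix, changed by -0.15 ± 0.03, Hspa9 by -0.12 ± 0.03 and Afg3l2 by -0.11 ± 0.04. On leaving out 1 replicate, the calls for Dars, Iars, Stt3b, Cryab, Hspa9, Yme1l1 and Afg3l2 were lost at least once, with adjusted p up to 0.163, 0.125, 0.0688, 0.135, 0.105, 0.0927 and 0.247 in that order (edgeR).

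**Figure D5:**
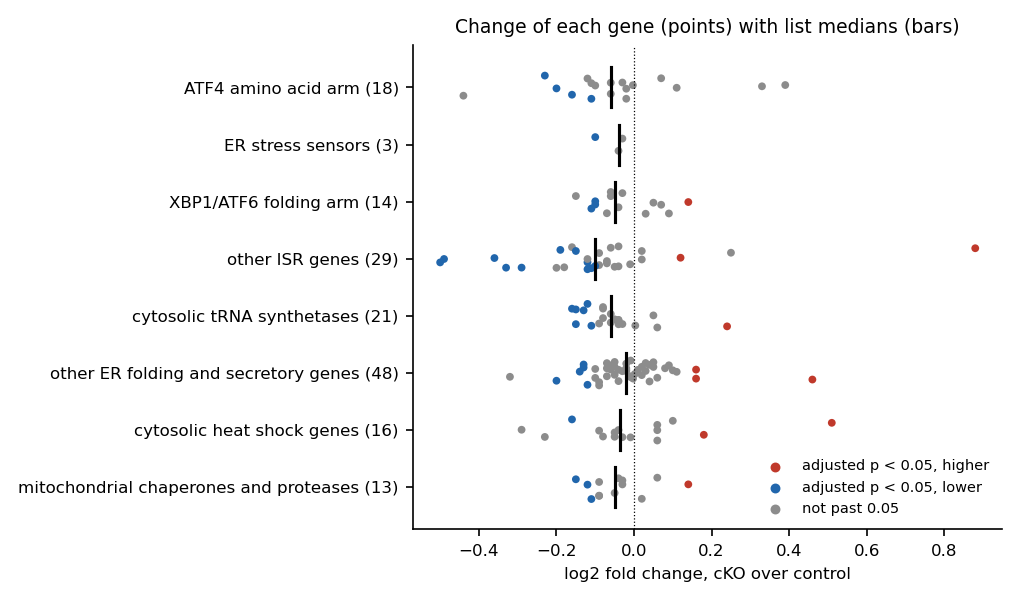
Log2 fold change (x axis, cKO over control) of each tested gene in the 3 groups of members and the 5 further lists (y axis, number of genes in brackets), with bars at the list medians and a dotted line at 0. Medians lie between -0.10 and -0.02, and Slc7a3 (0.88), Cryab (0.51) and Sec24d (0.46) stand to the right.

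Several members share their locus with another gene, and no strand setting of the counting is given in the sources used here. Ddit3 overlaps Mars1 at 79.2 CPM, Psph overlaps Cct6a at 287 CPM, Atf5 overlaps Nup62 at 50 CPM, Cebpb overlaps Tmem189 at 48.6 CPM and Slc7a5 overlaps Galnt2l at 70.9 CPM, all on the opposite strand. Manf overlaps Rbm15b at 173 CPM on the same strand and Dcaf1 at 50.2 CPM on the other. Levels of the weaker partner, Ddit3 and Cebpb above all, are uncertain. For 17 members at least 1 library held a count that was not whole (by more than 0.1), so reads may be divided with related sequences. They include every member called lower but not Sdf2l1, and the share of all genes by this measure was not counted. Mitochondrial transcripts took 2.42% to 3.24% of counts in control and 3.0% to 3.63% in cKO libraries, and a ribosomal RNA gene 7.91% to 10.1% against 6.61% to 9.13%. Each moved in the same direction in 4 of 4 pairs, and their part in the small changes above was not tested.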

How the data were processed

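Polyadenylated RNA was sequenced in 8 libraries, 4 control and 4 cKO, and depth is given above. Per the submitters' processing notes, the authors used Partek, cutadapt, STAR and DESeq2 with mm10, and no version, annotation or strand setting is given in the sources used here. Raw expected counts per gene were deposited, of which 52% are not whole. Columns were matched to samples by batch name. Counts were rounded, filtered with filterByExpr on group (minimum count 10, which removed 6053 genes), scaled by TMM and tested with edgeR 4.0.16 (glmQLFit, robust, and glmQLFTest, 2-sided) in R 4.3.3. The model held batch and group, since the labels' descriptions give 1 control and 1 cKO library the same batch name. Deviations from group means correlated at 0.788, 0.793, 0.76 and 0.748 within batches and at most 0.392 otherwise. Libraries of a group were distinct (chi-square per degree of freedom of at least 54.4). Errors are standard errors from the fold change and its F statistic. The fit was also run on simulated data whose changes were larger than those of the called members. That run therefore does not speak to changes as small as theirs. Pair differences used log2 with a prior count of 2. The members and lists were chosen with earlier results of these data known. Values per library are given for members past the threshold, for Atf4, Ddit3, Asns, Eif2ak3, Ern1, Atf6, Xbp1 and Hspa5, and for the 6 largest changes, and up to 4 genes with the smallest p per further list are named. Gpr17 and Mbp were chosen after their values were seen. Motifs were searched in 250 bases before each start in the RefSeq table, with 40 flanking bases shown, or 5 where an exon of another or the same gene lies within them. Alternatives were no batch term, RLE and upper-quartile factors, no filter, 1 CPM in 4 libraries, DESeq2 1.42.0, limma-voom 3.58.1 and each replicate left out. DESeq2 was run only as an alternative here.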

Additional observations from a re-analysis of the deposited data

How the results depend on the processing

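Without the replicate block, 1 gene was higher and 2 were lower in cKO, and 0 members were higher, 0 lower, 0 lower in the ATF4 arm, 0 lower in the folding arm, and 0 genes of the other lists were higher and 0 lower, although the arms' medians were -0.075 and -0.049 and Ehmt1 and Ehmt2 kept their calls. With the block, upper-quartile factors gave 4 lower members, 1 of them in the folding arm (arm median -0.035), and no filter gave 5. The single higher member, Sdf2l1, was lost (0 higher) with RLE factors, DESeq2 and limma-voom. Leaving out each replicate in turn gave 1127 to 1702 genes higher and 910 to 1730 lower, 0 members higher (0 in each) and 2 to 6 lower, 2 to 4 lower in the ATF4 arm, 0 to 1 in the folding arm with medians of -0.051 to -0.020, and 9 to 24 genes of the other lists lower. Phgdh and Shmt2 passed in each of these 4 fits. Of 380 member values under alternatives, 321 kept direction and call, 44 lost the call and 1 gained it (Mthfd2, without replicate 6). In 14, all of genes without a call, the sign turned: Asns at 0.01 (upper-quartile), 0.0038 (no filter), 0.0030 (1 CPM), 0.01 (without replicate 1) and 0.01 (without replicate 3), Atf3 at -0.12 and -0.10 (without replicates 1 and 4), Ddit3 at 0.02 and 0.03 (without replicates 3 and 6), Ern1 at 0.0054 (without replicate 3), Trib3 at 0.18 (without replicate 1), and Psat1 at 0.03, Slc3a2 at 0.0015 and Sel1l at 0.0035 (without replicate 4). With 1 replicate left out, Atf3 ran from -0.12 to 0.61, Ddit3 from -0.08 to 0.03, Trib3 from -0.21 to 0.18, Psat1 from -0.04 to 0.03, Slc3a2 from -0.05 to 0.0015, Ern1 from -0.07 to 0.0054 and Sel1l from -0.04 to 0.0035. Among genes without a call that kept their sign, Xbp1 ran from -0.13 to -0.0094, Nupr1 from 0.17 to 0.36 (2 fits), Atf5 from -0.16 to -0.05 and Ddit4 from -0.10 to -0.02. The cause was not tested. The median of all genes lay between -0.01 and 0.008 in every alternative. Depth limits Atf3, Trib3 and Nupr1, which have at most 44 counts in a library.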
